A study of Mus musculus with 21 samples.

Results

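SRSF7 left 1464 clusters of crosslinks in the cytoplasm at which neither SRSF7 nor SRSF3 had a listed position in the chromatin fraction. The clusters were chosen by the measured lists themselves. Listed positions of all 6 groups on 1 chromosome and strand were joined at gaps of up to 30 nt, which gave 211409 clusters outside the mitochondrial genome. Of these, 3835 held at least 10 SRSF7 cytoplasm cDNAs, and 1464 of the 3835 (38.2%) had no position in either chromatin list. The remaining 2371 clusters with at least 10 SRSF7 cytoplasm cDNAs had a chromatin position and served for comparison. Among those 2371, 647 were listed in chromatin for SRSF3 alone, 356 for SRSF7 alone and 1368 for both proteins.

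SRSF7 is an SR protein with an RNA recognition motif, a zinc knuckle and a tail rich in serine and arginine. It acts in splicing and in 3′ end processing, and it shuttles between nucleus and cytoplasm with bound mRNA, which it helps to export. SRSF3 is a close relative that shares these roles and lacks the zinc knuckle. Chromatin holds mostly nascent and retained transcripts, the nucleoplasm holds released RNA, and the cytoplasm holds exported mRNA. A position listed in the cytoplasm and not on chromatin is therefore a place to look for contacts with RNA late in its life.

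All groups came from P19, a mouse embryonal carcinoma cell line, that expressed SRSF3-GFP or SRSF7-GFP. Crosslinking used 254 nm light at 100 mJ/cm2, which fixes proteins to contacted RNA, and the cells were then separated into chromatin, nucleoplasm and cytoplasm before iCLIP. In iCLIP the start of each cDNA marks the linked nucleotide. SRSF3-GFP was measured in 4 replicates of each fraction and SRSF7-GFP in 3, making 21 samples in 6 groups. How the tagged lines were derived is not given in the sources used here.

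Each group is 1 pooled list, so the spread over replicates is unknown, no test was made and no p-value is given. Intervals below are 95% intervals that cover counting error only, exact Clopper-Pearson for shares, Newcombe for differences of shares and conditional exact binomial for ratios. Those for shares of clusters and their differences take clusters as independent. Of the 1464 clusters, 894 (61.1%) lay within 10 kb of another on the same strand, so these intervals are too narrow. The listed totals were 1768665 cDNAs for SRSF3 chromatin and between 248498 (SRSF7 chromatin) and 367298 (SRSF7 cytoplasm) for the other 5 lists. A weak contact passes into a deep list more easily, so the absence of a position from a list is not evidence of no binding. RNA levels in the fractions were not measured, so more RNA and more binding per RNA cannot be told apart. Genes, exons and sequences under the clusters were not analysed here, and every locus is given by its mm9 coordinates, counted from 1.

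Most of the 1464 clusters were small. They held a median of 14 SRSF7 cytoplasm cDNAs, with quartiles of 11 and 20 and a range of 10 to 138. Together they held 27087 cDNAs at 17833 positions, 7.37% (7.29 to 7.46) of the SRSF7 cytoplasm list. The share of clusters without chromatin fell from 1085 of 2324 (46.7%) at 10 to 19 cDNAs to 322 of 981 (32.8%) at 20 to 49, 50 of 295 (16.9%) at 50 to 99 and 7 of 235 (2.98%) at 100 or more. The rule used these values, so they describe the choice and support nothing further. At its edges, 263 members held exactly 10 cDNAs and 299 clusters without chromatin held 9. On the chromatin side, 43 clusters were kept out by a single chromatin cDNA and 286 by 2 to 5. The members lay on both strands, 689 of 1464 (47.1%) on the plus strand.

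In form, the clusters were mostly low ridges of many positions. The SRSF7 cytoplasm positions of a member spanned a median of 54 nt, with quartiles of 31 and 83 nt, and numbered a median of 10. The highest single position held a median of 3 cDNAs, a median of 18.2% of the cluster. In 696 of 1464 members (47.5%) no position held more than 2 cDNAs, against 691 of 2371 clusters with chromatin (29.1%). The clusters with chromatin had a similar span (median 51 nt) and a similar share at the highest position (18.75%), with a higher count, a median of 19 cDNAs.

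A smaller set of members had the opposite form. In 230 of 1464 (15.7%) all SRSF7 cytoplasm positions lay within 15 nt, and in 70 of these there was 1 position only. These narrow clusters held a median of 2 positions, 80.9% of their cDNAs at the highest and 7 cDNAs per position. The 1234 broad clusters held a median of 11 positions, 16.7% at the highest and 1.25 cDNAs per position. Narrow clusters made up 451 of the 2371 (19.02%) clusters with chromatin, so the form was not particular to the members. The limit of 15 nt was set after the distribution of spans was seen.

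**Figure D1:**
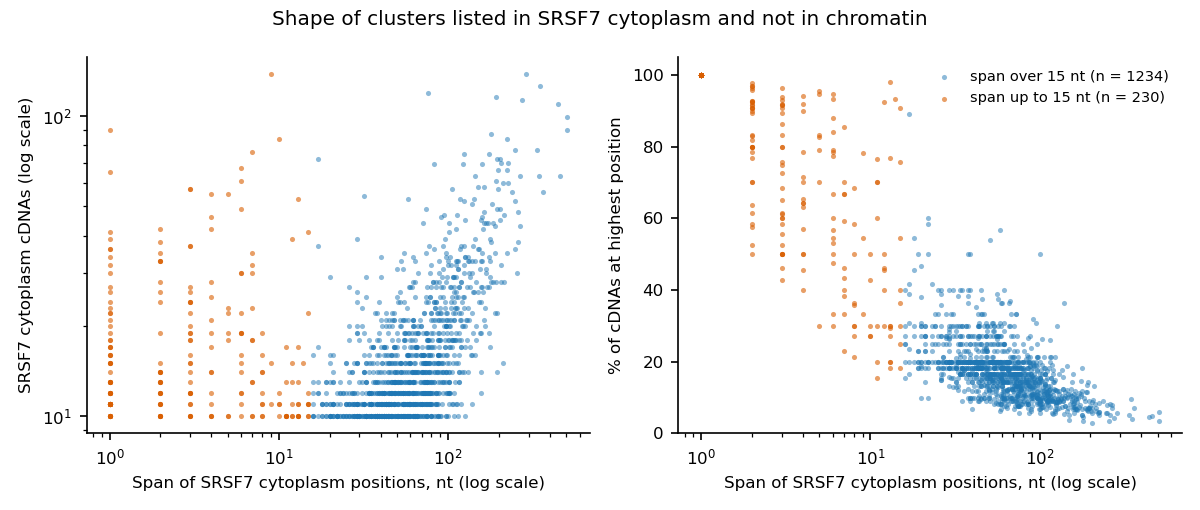
Span of the SRSF7 cytoplasm positions of each cluster in nt (log axis) against its SRSF7 cytoplasm cDNAs (log axis) and against the percent of its cDNAs at the highest position, 1 point per cluster. The 230 clusters spanning up to 15 nt (orange) reach high shares at 1 position, with a median of 80.9%, while the 1234 broader clusters (blue) have a median of 16.7%.

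The member clusters with the most SRSF7 cytoplasm cDNAs showed both forms side by side. The cluster at chr19:44378303-44378590 on the plus strand held 138 cDNAs spread over 78 positions, the highest with 8. It also held 33 cDNAs in SRSF7 nucleoplasm and 32 in SRSF3 nucleoplasm, and none in SRSF3 cytoplasm. A neighbour at chr19:44377861-44377936 held 119 cDNAs at 48 positions, with 41 in SRSF7 nucleoplasm and 30 in each of SRSF3 cytoplasm and SRSF3 nucleoplasm. The nearest chromatin positions lay 76 nt from the first and 122 nt from the second, and both belonged to a run of 10 members.

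The cluster at chr9:116151021-116151029 on the minus strand also held 138 cDNAs, at 5 positions. A single nucleotide accounted for 108 of them (78.3%), no other list had a position there, and the nearest chromatin position was 200856 nt away. The equal totals of the chr9 and chr19 clusters thus came from 5 and 78 positions.

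Broad clusters of the same size were listed in SRSF7 nucleoplasm with lower counts. At chr11:120422059-120422408 on the minus strand, 126 cytoplasm cDNAs over 93 positions stood beside 22 in SRSF7 nucleoplasm and none for SRSF3. At chr3:88391874-88392318 on the plus strand, 110 stood beside 21, again with none for SRSF3. Those clusters lay 2253 and 2259 nt from a chromatin position, farther than the pair on chr19. At chr10:56108578-56108770 on the plus strand, 116 cDNAs stood beside 8 in SRSF7 nucleoplasm and 1 in SRSF3 nucleoplasm, 93 nt from chromatin. At chr16:37834531-37834804 on the plus strand, 113 cDNAs stood beside 10 in SRSF7 nucleoplasm and 19 in SRSF3 cytoplasm. Here SRSF3 was listed in the cytoplasm and not in the nucleoplasm, while the 1 SRSF3 cDNA of the chr10 cluster is too few to compare.

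Other clusters among the 15 with the most cDNAs showed the same patterns. On the X chromosome, chrX:78340988-78341495 on the plus strand held 99 cDNAs at 77 positions, with 11 in SRSF7 nucleoplasm and none for SRSF3. On the plus strand of chromosome 19, chr19:8990388-8990637 held 77 with 12 in SRSF7 nucleoplasm, and on the minus strand of chromosome 9, chr9:30957200-30957537 held 77 with 24, both without SRSF3. Those 3 loci were seen with SRSF7 alone. The cluster at chr6:47746166-47746390 on the minus strand held 84, with 24 in SRSF7 nucleoplasm, 30 in SRSF3 cytoplasm and 24 in SRSF3 nucleoplasm, and was thus listed everywhere except chromatin. The 4 of the 15 not described here are taken up below, with SRSF3 or with the narrow clusters.

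Members were listed in the other 3 lists less often than clusters with chromatin. SRSF7 nucleoplasm had a position in 620 of 1464 members (42.3%, 39.8 to 44.9), against 1966 of 2371 clusters with chromatin (82.9%) and 67.4% of all 3835. SRSF3 cytoplasm had one in 302 members (20.6%) against 1501 (63.3%), and 47.0% of all 3835. SRSF3 nucleoplasm had one in 262 members (17.9%) against 1555 (65.6%), and 47.4% of all 3835. The difference of the shares, members minus clusters with chromatin, was -40.6 percentage points for SRSF7 nucleoplasm (-43.5 to -37.6), -42.7 for SRSF3 cytoplasm (-45.4 to -39.8) and -47.7 for SRSF3 nucleoplasm (-50.3 to -44.9). These 3 lists set no threshold in the choice, but their positions were among those joined and so took part in it. Clusters were therefore also joined from SRSF7 cytoplasm positions alone, with chromatin empty within 30 nt and the other lists matched within 5 nt of an SRSF7 cytoplasm position. That gave 1472 members and 2341 clusters with chromatin, and shares of 39.0% against 80.7% for SRSF7 nucleoplasm, 19.4% against 62.4% for SRSF3 cytoplasm and 15.8% against 63.6% for SRSF3 nucleoplasm.

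The size of the clusters moved with this difference, since members held fewer cDNAs. Within the same class of SRSF7 cytoplasm cDNAs the members were lower in each of the 3 lists. For SRSF7 nucleoplasm the shares were 35.9% against 74.7% at 10 to 19 cDNAs, 58.4% against 88.8% at 20 to 49 and 72% against 95.5% at 50 to 99. At 100 or more cDNAs, with 7 members, they were 85.7% against 96.9%, and the interval of the difference, -48.3 to 0.913 percentage points, held 0. In percentage points the gap for SRSF7 nucleoplasm narrowed with size, while clusters with chromatin rose to 96.9%, which leaves little room above. That for SRSF3 cytoplasm did not narrow. SRSF3 cytoplasm was listed for 16.6% against 49.1% at 10 to 19 cDNAs, 29.5% against 71.2% at 20 to 49 and 50% against 85.7% at 50 to 99. At 100 or more, with 7 members, it was listed for 28.6% against 93.9%. SRSF3 nucleoplasm was listed for 14.8% against 55.0%, 23.9% against 69.7%, 42% against 85.7% and 42.9% against 89.9% in the same classes. The part of RNA abundance in these differences was not tested.

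**Figure D2:**
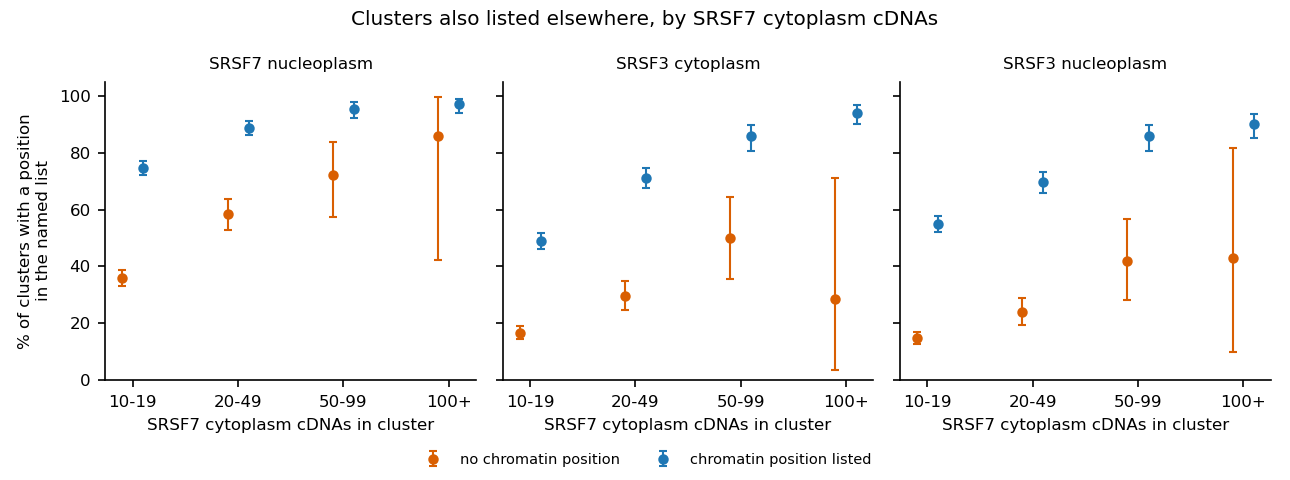
Percent of clusters with a position in SRSF7 nucleoplasm, SRSF3 cytoplasm and SRSF3 nucleoplasm (3 panels) by class of SRSF7 cytoplasm cDNAs, for clusters without chromatin (orange) and with chromatin (blue), with 95% Clopper-Pearson intervals as bars. The orange points lie below the blue ones in every class of each panel, for SRSF7 nucleoplasm at 35.9% against 74.7% in the lowest class.

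A stricter match lowered the shares slightly in both kinds of cluster. When a position had to lie within 5 nt of an SRSF7 cytoplasm position, 38.9% of members had one in SRSF7 nucleoplasm, 19.7% in SRSF3 cytoplasm and 16.3% in SRSF3 nucleoplasm, against 80.6%, 61.8% and 63.0% of clusters with chromatin. Clusters seen on chromatin with SRSF3 alone lay between, at 71.4%, 54.1% and 58.4% for a position anywhere in the cluster. Clusters built only from positions of at least 3 cDNAs turned the order of the lists, with SRSF7 nucleoplasm at 24.2% of 351 members and SRSF3 cytoplasm at 33.9%.

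Many members were seen in the SRSF7 cytoplasm list alone. No other list had a position in 668 of 1464 (45.6%, 43.1 to 48.2), against 150 of 2371 clusters with chromatin (6.33%). A further 378 members (25.8%) were shared with SRSF7 nucleoplasm only. All 3 other lists had a position in 100 members (6.83%), against 1153 clusters with chromatin (48.6%). SRSF3 without SRSF7 nucleoplasm was listed in the cytoplasm alone at 85 members, in the nucleoplasm alone at 45 and in both at 46.

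Where a member was listed elsewhere, its count there was usually low. The members' median in a list that held them was 5 cDNAs for SRSF7 nucleoplasm, 9 for SRSF3 cytoplasm and 8 for SRSF3 nucleoplasm. At least 10 cDNAs were reached in 125, 128 and 120 members. In clusters with chromatin the medians were 15, 19 and 22, and 1288, 1030 and 1168 of the 2371 reached 10. Those clusters also held more SRSF7 cytoplasm cDNAs, a median of 19 against 14. The summed counts of the members were 4318 cDNAs in SRSF7 nucleoplasm (1.57% of that list), 3331 in SRSF3 cytoplasm (1.30%) and 3002 in SRSF3 nucleoplasm (0.951%). SRSF7 nucleoplasm held more cDNAs than SRSF7 cytoplasm in 23 members, against 661 of the 2371 clusters with chromatin. The nucleoplasm list was 0.749 times the size of the cytoplasm list.

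The members with the most SRSF7 nucleoplasm cDNAs included a locus crowded with chromatin positions. At chr19:5801056-5801080 on the minus strand, SRSF7 had 131 cDNAs in the nucleoplasm at 24 positions and 35 in the cytoplasm at 7 positions. A second member of that locus, chr19:5800064-5800093, held 37 in the nucleoplasm and 39 in the cytoplasm. Chromatin positions lay 46 nt from the first and 49 nt from the second, and 44457 chromatin cDNAs lay within 10 kb of the first, so these members lay among dense chromatin contacts. The member at chr12:63688083-63688086 on the plus strand was of another kind, with 45 SRSF7 nucleoplasm, 28 SRSF7 cytoplasm, 25 SRSF3 nucleoplasm and 15 SRSF3 cytoplasm cDNAs within 4 nt, 60065 nt from any chromatin position.

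At members with at least 10 SRSF3 cDNAs, SRSF3 was more often tilted to the cytoplasm than at other clusters, less so at 20. The share of the SRSF3 cytoplasm list was set against that of the SRSF3 nucleoplasm list for each cluster with at least 10 SRSF3 cDNAs in both together. Of 222 such members, the cytoplasm share was higher beyond 2-fold over the whole interval in 58 (26.1%) and the nucleoplasm share in 32 (14.4%). Over all 4907 such clusters the cytoplasm was higher in 467 (9.52%) and the nucleoplasm in 1187 (24.2%). Over the 1441 clusters with chromatin the numbers were 216 (14.99%) and 263 (18.3%). Their median was 50 SRSF3 cDNAs in both lists together, against 17 in the 222 members. Members and clusters with chromatin were chosen for SRSF7 cytoplasm cDNAs, and the 4907 clusters were not. At 20 or more SRSF3 cDNAs the members' excess toward the cytoplasm was smaller. There 13 and 11 of 100 members (13% and 11%) were higher in cytoplasm and in nucleoplasm, against 9.63% and 22.0% of 2410 clusters. Clusters with chromatin were not counted apart at that minimum. With the mitochondrial genome and the 10 highest clusters left out of the totals, 66 (29.7%) and 24 (10.8%) of the 222 members were higher in cytoplasm and in nucleoplasm, against 564 (11.5%) and 761 (15.5%) of all 4907. In 53 of the 222 members SRSF3 nucleoplasm had no position and in 43 SRSF3 cytoplasm had none. Over all 4907 clusters these numbers were 288 and 1159, and over the 1441 with chromatin 74 and 146.

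The 5 members with the most SRSF3 cytoplasm cDNAs were all higher in the cytoplasm, 3 of them with the whole interval beyond 2-fold. They were picked by a count that enters the ratio, so the choice itself favours this tilt and the values are a description. At chr4:51825377-51825413 on the minus strand SRSF3 had 81 cytoplasm cDNAs, beside 54 of SRSF7, and neither protein had a nucleoplasm position. The same held at chr12:55797879-55797914 on the plus strand, with 50 cDNAs for SRSF3 and 29 for SRSF7 in the cytoplasm. Chromatin positions lay 107 nt from the first and 72 nt from the second. At chr3:150292543-150292550 on the minus strand SRSF3 had 53 cytoplasm and 13 nucleoplasm cDNAs, a log2 ratio of shares of 2.32 (1.43 to 3.32), beside 30 SRSF7 cytoplasm cDNAs. At chr11:48619050-48619103 on the plus strand it had 66 and 28, a log2 ratio of 1.53 (0.87 to 2.23), and at chr15:76734735-76734852 on the plus strand 71 and 43, a log2 ratio of 1.02 (0.45 to 1.60). The intervals of the chr11 and chr15 loci did not lie wholly beyond 2-fold. Among the clusters with the most SRSF7 cytoplasm cDNAs, chr11:29642051-29642559 on the plus strand tilted the same way, with 24 SRSF3 cytoplasm and 4 SRSF3 nucleoplasm cDNAs beside 90 of SRSF7 (log2 ratio 2.88, 1.34 to 4.87). In listed counts, the strongest tilt to the nucleoplasm among the named loci was at chr19:44378303-44378590. It had 0 SRSF3 cytoplasm and 32 SRSF3 nucleoplasm cDNAs (upper bound of the log2 ratio -2.74). A tilt the same way, not wholly beyond 2-fold, was found at chr6:122678775-122678955 on the minus strand. There SRSF3 had 11 cytoplasm and 37 nucleoplasm cDNAs beside 87 SRSF7 cytoplasm cDNAs (log2 ratio -1.45, -2.57 to -0.45). At the chr4, chr12 and chr19 loci an unlisted SRSF3 fraction was taken as 0 cDNAs. Their bounds hold for listed counts and not for contacts below the cutoff of the lists.

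Within a member, the highest positions of the lists often lay apart, but few of them held at least 5 cDNAs. Of positions with equal counts the one with the lower coordinate was taken. The highest SRSF7 nucleoplasm position lay within 5 nt of the highest SRSF7 cytoplasm position in 164 of 620 members (26.5%). For SRSF3 cytoplasm this was so in 137 of 302 (45.4%) and for SRSF3 nucleoplasm in 101 of 262 (38.5%). In clusters with chromatin the shares for the same lists in order were 46.4%, 52.7% and 46.4%. Where the highest position of the other list held at least 5 cDNAs, most matched in members, 20 of 24 (83.3%), 48 of 57 (84.2%) and 28 of 43 (65.1%). In clusters with chromatin these shares were 66.6%, 66.8% and 56.3%. Narrow members made up 32 of the 57 with such a peak in SRSF3 cytoplasm, and all 32 matched. In broad members with such a peak the numbers were 5 of 9 for SRSF7 nucleoplasm, 16 of 25 for SRSF3 cytoplasm (64%, 42.5 to 82.0) and 15 of 29 for SRSF3 nucleoplasm. With peaks of any height, in narrow members SRSF3 cytoplasm peaked within 5 nt in 71 of 76 (93.4%) and in broad members in 66 of 226 (29.2%), and a narrow cluster leaves little room for any other outcome.

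Although no member held a chromatin position, most lay within 10 kb of one. So did most clusters with chromatin, with more chromatin cDNAs around them. The nearest chromatin position on the same strand was a median of 969 nt away, with quartiles of 240 and 5332 nt. It lay within 200 nt for 324 members (22.1%), within 1 kb for 740 (50.5%) and within 10 kb for 1168 (79.8%, 77.6 to 81.8). A chromatin position outside the cluster lay within 10 kb of 1914 of the 2371 clusters with chromatin (80.7%) and within 1 kb of 1643 (69.3%). The members were thus lower within 1 kb and near equal within 10 kb for any position in either list. The amount differed, with a median of 22 chromatin cDNAs within 10 kb of members and 122 of clusters with chromatin. The chromatin lists also split the clusters into these groups, so the choice itself favours less chromatin near members. SRSF7 chromatin alone was listed within 10 kb of 52.0% of members and 66.6% of clusters with chromatin. The nearest SRSF3 chromatin position was a median of 1497 nt away and the nearest SRSF7 one 8166 nt, in lists that differ in depth. The nearest position lay upstream for 331 of the 740 within 1 kb (44.7%, 41.1 to 48.4). For those within 10 kb it lay upstream for 533 of the 1168 (45.6%, 42.7 to 48.5). By amount within 10 kb the order turned, with more chromatin cDNAs upstream at 614 members and more downstream at 540. Neither side was thus favoured by both measures. Within 10 kb there were no chromatin cDNAs for 296 members (20.2%), 10 to 99 for 617 (42.1%) and at least 1000 for 41. Some chromatin position thus lay within 10 kb of most members, and none was listed there for 20.2% of them. Among the 351 members built from positions of at least 3 cDNAs, 42.7% lay within 10 kb of a chromatin position, where chromatin positions under 3 cDNAs were dropped too.

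**Figure D3:**
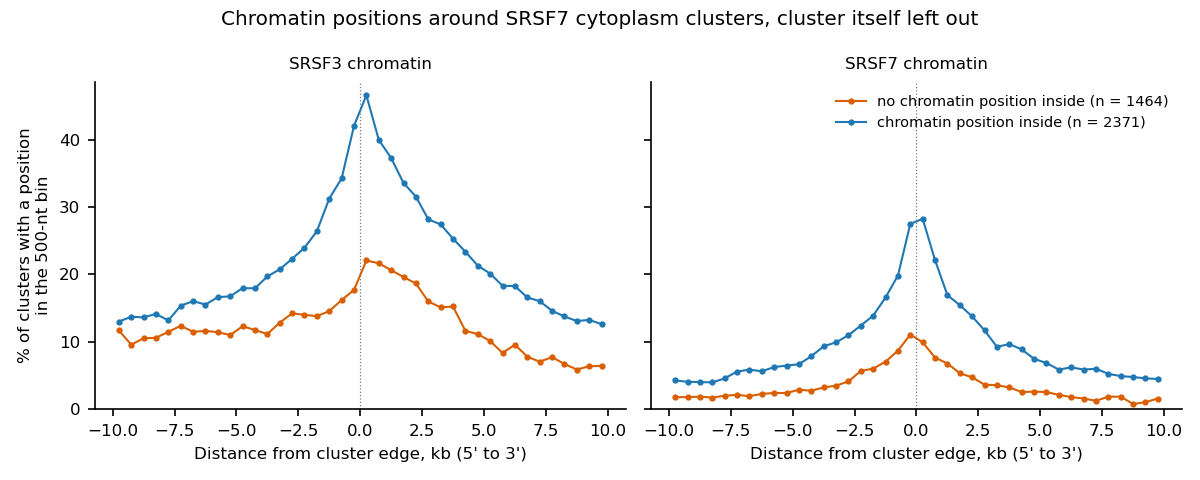
Percent of clusters with a chromatin position in each 500-nt bin within 10 kb of the cluster, from 5′ to 3′ along the strand, for SRSF3 chromatin and SRSF7 chromatin, in members (n = 1464) and clusters with chromatin (n = 2371). In the bins beside the cluster, members reach 17.7% upstream and 22.1% downstream for SRSF3 chromatin, against 42.0% and 46.6% of clusters with chromatin.

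Beside the clusters, chromatin was also listed less often at members. In the 500 nt just downstream, 22.1% of members had an SRSF3 chromatin position, against 46.6% of clusters with chromatin. For SRSF7 chromatin the values were 9.90% and 28.3%. In the farthest bin upstream SRSF3 chromatin stood at 11.7% against 13.0% and SRSF7 chromatin at 1.78% against 4.26%. In the farthest bin downstream they stood at 6.42% against 12.6% and at 1.57% against 4.47%, so of these 4 far values only upstream SRSF3 chromatin came near that of clusters with chromatin. The rule empties the cluster itself and 30 nt on either side, which removes part of the nearest bins. Members and clusters with chromatin were split by these same lists, so lower values beside members are favoured by the choice. They describe the surroundings, and how far they exceed what the choice brings was not tested.

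Broad and narrow members stood in different surroundings. Broad members lay a median of 730 nt from chromatin, and 141 of 1234 (11.4%) had no chromatin position within 10 kb. Narrow members lay a median of 41224 nt away, and 155 of 230 (67.4%) had none. Other SRSF7 cytoplasm positions lay within 10 kb of 1201 broad members (97.3%) and of 55 narrow ones (23.9%). A cluster of at least 10 SRSF7 cytoplasm cDNAs with chromatin lay within 10 kb of 602 broad members (48.8%) and 28 narrow ones (12.2%). Broad members were thus usually 1 of several bound places on a stretch, and narrow ones usually stood alone.

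**Figure D4:**
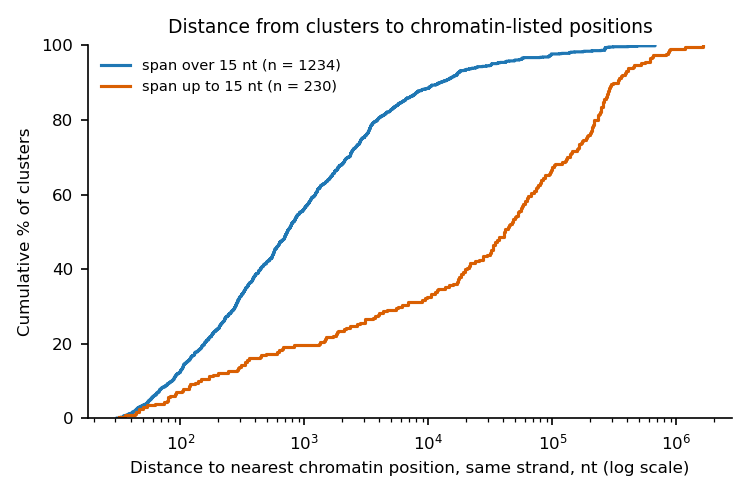
Cumulative percent of member clusters against the distance in nt (log axis) to the nearest chromatin position on the same strand, for broad (n = 1234) and narrow (n = 230) clusters. The curve for broad clusters reaches its median at 730 nt and that for narrow clusters at 41224 nt.

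The narrow clusters also differed in the lists they shared. SRSF7 nucleoplasm was listed in 41 of 230 (17.8%), against 579 of 1234 broad ones (46.9%). SRSF3 cytoplasm went the other way, at 76 (33.0%) against 226 (18.3%), and SRSF3 nucleoplasm was near equal at 37 (16.1%) and 225 (18.2%). Narrow members were thus shared with the other protein's cytoplasm more often than with the same protein's nucleoplasm.

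The 5 largest members seen in SRSF7 cytoplasm alone were all narrow and isolated. Besides the chr9 cluster with 138 cDNAs, chr8:10349788-10349788 on the plus strand held 90 cDNAs at a single nucleotide. The cluster at chr15:56080757-56080757 on the minus strand held 65 at a single nucleotide. At chr6:126659085-126659090 on the minus strand there were 67, with 59 at 1 position, and at chr14:109853853-109853855 on the minus strand 57, with 53 at 1 position. None of the 5 had a chromatin cDNA or another SRSF7 cytoplasm cDNA within 10 kb. The nearest chromatin position was 17775 nt away for the chr6 cluster and 362285 nt away for the chr14 cluster. The narrow cluster at chr2:56787516-56787528 on the minus strand, with 84 SRSF7 cytoplasm cDNAs, differed in being shared, with 3 SRSF7 nucleoplasm, 10 SRSF3 cytoplasm and 4 SRSF3 nucleoplasm cDNAs.

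The members farthest from chromatin were of the same kind with lower counts. At chr15:22686760-22686762 on the plus strand 20 cDNAs lay 1627233 nt from chromatin. At chr2:95961006-95961014 on the minus strand 11 lay 1179144 nt away, and at chr9:91179945-91179945 on the plus strand 10 lay 893891 nt away. All 3 were absent from the other lists.

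Members came in runs along the strand. Joined at gaps of up to 10 kb on 1 strand, the 1464 members formed 810 stretches. Of these, 570 held a single member, and 240 held the other 894 members (61.1%). In 56 stretches there were at least 5 members, 422 in all. Neighbouring members in a stretch lay a median of 403 nt apart, and 212 of 654 neighbouring pairs lay within 200 nt. No chromatin position lay between the first and the last member in 118 of the 240 stretches. Runs are given for members only, so they are not shown to be particular to them. Other SRSF7 cytoplasm positions lay within 10 kb of 85.8% of members and 76.6% of clusters with chromatin.

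Within the longer runs, members gathered toward the 3′ end. In stretches of at least 5 members, the first and last member set the ends, so only the 310 inner members were counted by position, in 5 equal bins from 5′ to 3′. The bin at the 3′ end held 115 of them (37.1%, 31.7 to 42.7), and each of the other 4 bins between 39 (12.6%) and 54 (17.4%). Members of 1 stretch are not independent, so the interval is too narrow, and this count was chosen after single stretches were seen. It too is given for members only, without a value for clusters with chromatin.

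The stretch with the most members lay on the minus strand at chr1:155066564-155081696. Its 15 members held 323 of the 363 SRSF7 cytoplasm cDNAs there (89.0%), from 10 to 75 each. SRSF3 chromatin, the deepest list, had no position over these 15.1 kb, and SRSF7 chromatin had 4 cDNAs. SRSF7 nucleoplasm had 44 cDNAs, in 6 of the 15 members among other places, and SRSF3 had 20 in the cytoplasm and 1 in the nucleoplasm. All 20 SRSF3 cytoplasm cDNAs lay in the highest member, chr1:155067126-155067250, with 75 SRSF7 cytoplasm and 14 SRSF7 nucleoplasm cDNAs. Of the 15 members, 12 lay in the last 2500 nt at the 3′ end, with 280 cDNAs.

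The stretch on the minus strand at chr10:5987414-5993398 was shorter, and nearly all of its members were shared with the nucleoplasm. Its 13 members held 287 of 436 SRSF7 cytoplasm cDNAs (65.8%), and 12 of the 13 were listed in SRSF7 nucleoplasm, which had 170 cDNAs over the stretch. The highest 2, chr10:5993018-5993285 near the 5′ end and chr10:5987678-5987909 near the 3′ end, held 63 and 60 SRSF7 cytoplasm cDNAs beside 17 and 26 in SRSF7 nucleoplasm. SRSF3 was listed in 1 member alone, the last at the 3′ end, chr10:5987414-5987428, with 25 cytoplasm and 26 nucleoplasm cDNAs beside 10 SRSF7 cytoplasm cDNAs. SRSF3 chromatin again had no position and SRSF7 chromatin had 9 cDNAs.

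Another 13 members lay on the plus strand at chr8:131229313-131257025, with 249 of 401 SRSF7 cytoplasm cDNAs (62.1%). Here 3 members were listed in SRSF7 nucleoplasm, against 12 of the 13 on chr10. The highest member, chr8:131256706-131256855, held 58 SRSF7 cytoplasm, 13 SRSF7 nucleoplasm, 28 SRSF3 cytoplasm and 14 SRSF3 nucleoplasm cDNAs and lay among the 4 members of the last 2500 nt. From chr8:131230984-131231039 to chr8:131256495-131256563, 9 consecutive members with 10 to 28 SRSF7 cytoplasm cDNAs were in no other list. SRSF3 chromatin had 22 cDNAs and SRSF7 chromatin 12 over 27.7 kb.

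Of the 6 stretches with 11 members, the 2 taken by the rule for ties had chromatin positions between the members. On the minus strand at chr1:71632128-71675091, SRSF3 chromatin had 365 cDNAs at 236 positions and SRSF7 chromatin had none. SRSF7 had 321 cDNAs in the cytoplasm, 169 of them in members, and 118 in the nucleoplasm, while SRSF3 cytoplasm had none. SRSF3 was thus listed here on chromatin and SRSF7 in the other fractions, apart from 43 SRSF3 nucleoplasm cDNAs. The chromatin lists differ in depth, with 1768665 cDNAs for SRSF3 and 248498 for SRSF7, so the empty SRSF7 list does not show absence of binding. Its members were spaced over the whole 43.0 kb, the highest at chr1:71660392-71660538 with 26 SRSF7 cytoplasm and 14 SRSF7 nucleoplasm cDNAs. On the plus strand at chr2:71676324-71695922, SRSF7 had 343 cytoplasm cDNAs, 253 of them in members (73.8%), and 8 of the 11 members lay in the last 2500 nt. The highest member was the last, chr2:71695729-71695922, with 49 SRSF7 cytoplasm, 29 SRSF3 cytoplasm and 17 SRSF3 nucleoplasm cDNAs and no SRSF7 nucleoplasm position. SRSF3 was listed there in the cytoplasm with 98 cDNAs, in the nucleoplasm with 97 and on chromatin with 77, so SRSF3 was listed there in each fraction.

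**Figure D5:**
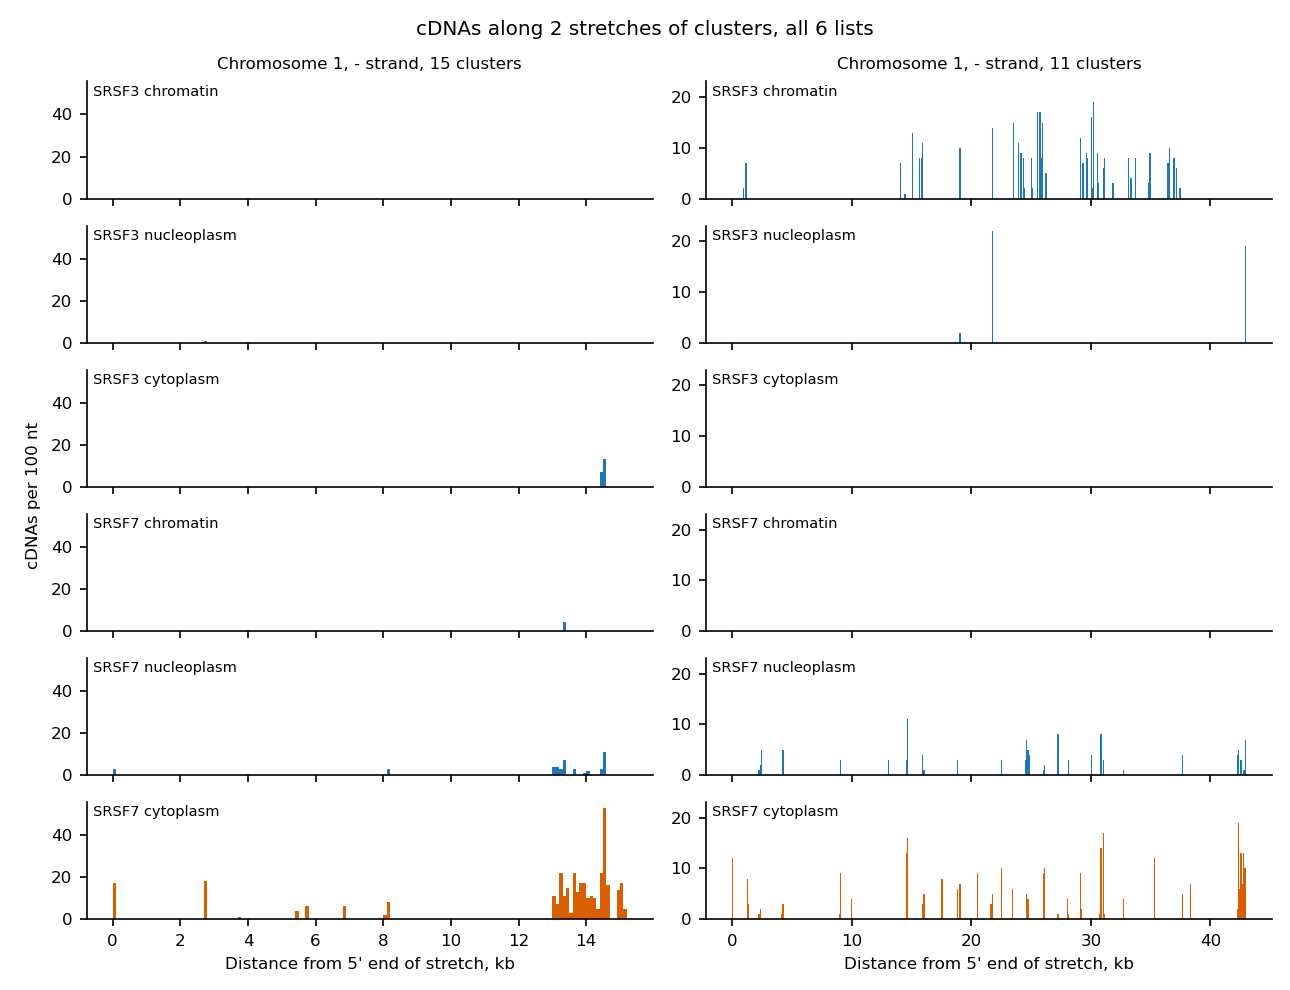
Listed cDNAs per 100 nt along the chr1 stretch of 15 members and the chr1 stretch of 11 members, from 5′ to 3′, in each of the 6 lists. In the first, SRSF7 cytoplasm (363 cDNAs) rises near the 3′ end with no SRSF3 chromatin position, and in the second SRSF3 chromatin (365 cDNAs) fills the stretch between SRSF7 cytoplasm clusters.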

How the data were processed

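The deposited values are whole-number cDNA counts, 1 list of single-nucleotide positions per group. Replicates were merged into 1 list by the authors before deposit, per the labels' sample descriptions, and kept positions with a false discovery rate below 0.05 against 100 permutations in a 15 nt neighbourhood, per the file headers. In the SRSF7 headers the track name says regions as one and the description says separately. The sign of a value was read as its strand, an inference from the file layout. Coordinates are of mm9, per the submitters' processing notes. For the aligner, peak caller and duplicate removal, details were not given in the sources used here. No sample lacks a tagged protein.

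The members and lists were chosen with earlier results of these data known. Positions were joined at gaps of up to 30 nt, and counts were summed per cluster and list without scaling. SRSF3 ratios compare shares of listed totals. Named loci are the 15 members with the most SRSF7 cytoplasm cDNAs, the 5 highest without any other list, the 5 with the most SRSF3 cytoplasm and SRSF7 nucleoplasm cDNAs, the 5 stretches with the most members and the 3 members farthest from chromatin. The listing of members was tested on simulated data. Alternatives were other gaps, minimum counts, windows, strands and depths. Motifs and annotation were not used here, for want of a genome of this build. The software was Python 3.11.15 (numpy 2.4.6, scipy 1.17.1, pandas 2.3.3, matplotlib 3.10.9).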

Additional observations from a re-analysis of the deposited data

How the results depend on the processing

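The number of members was 5286 at a minimum of 5 SRSF7 cytoplasm cDNAs, 379 at 20, 57 at 50, 351 when positions under 3 cDNAs were dropped and 790 with every list thinned to the smallest, and stayed within 1.5 times of 1464 under the other alternatives run. At minimums of 5, 20 and 50, SRSF7 nucleoplasm was listed in 27.3%, 60.7% and 73.7% of members, SRSF3 cytoplasm in 10.9%, 32.2% and 47.4% and SRSF3 nucleoplasm in 9.70%, 26.6% and 42.1%. At 20 the median span was 97 nt with 11.5% of cDNAs at the highest position, and at 50 the share within 10 kb of chromatin was 75.4%. With positions of at least 3 cDNAs the 3 list shares were 24.2%, 33.9% and 23.6%, the share within 10 kb 42.7%, the median span 2 nt and the share at the highest position 65.9%. Thinned lists gave 53.3%, 29.1%, 25.1%, 77.1%, 66 nt and 17.6% for the same measures in order. With only SRSF7 chromatin empty the list shares were 51.3%, 30.9% and 30.3% and the share within 10 kb 86.0%. Joining at 10 nt gave 24.7% for SRSF3 cytoplasm, 30 nt and 20%. Joining at 100 nt gave 46.2% for SRSF7 nucleoplasm, 74.9% within 10 kb, 107.5 nt and 16.7%. With chromatin empty within 200 nt, 74.0% lay within 10 kb, and 50.5% lay within 1000 nt and 89.4% within 50000 nt. Chosen after seeing the data, spans over 15 nt alone gave 46.9%, 18.3% and 88.6% within 10 kb, and a match within 5 nt gave 38.9% for SRSF7 nucleoplasm. Joining SRSF7 cytoplasm positions alone, also chosen after seeing the data, gave 39.0% for SRSF7 nucleoplasm and 15.8% for SRSF3 nucleoplasm, and differences of -41.7, -43.0 and -47.8 points for SRSF7 nucleoplasm, SRSF3 cytoplasm and SRSF3 nucleoplasm. Differences by class, from low to high counts where they moved by more than the interval, were -30.4, -23.5 and -11.2 points for SRSF7 nucleoplasm, -32.5, -35.7 and -65.3 for SRSF3 cytoplasm, and -40.1 and -43.7 for SRSF3 nucleoplasm. Leaving the mitochondrial genome and the 10 highest clusters out of the totals lowered the count higher in nucleoplasm over all clusters from 1187 to 761. At least 20 SRSF3 cDNAs left 13 members higher in cytoplasm and 11 in nucleoplasm. The differences between members and clusters with chromatin kept their sign in each class, while the order of SRSF7 nucleoplasm and SRSF3 cytoplasm turned with positions of at least 3 cDNAs. No paired analysis was possible because the replicates of each group were pooled before deposit, and leaving out a replicate was not possible for the same reason. The motif alternative was not run, for want of a genome of this build. Depth limits every statement of absence, and a missing position means only that none was listed.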

Other observations

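On the opposite strand, chromatin positions lay inside a member or within 30 nt of it in 3 of 1464 cases (0.205%), and within 10 kb of 258 members (17.6%). The members' share of clusters with at least 10 SRSF7 cytoplasm cDNAs was highest on chromosome 8, with 98 of 178 (55.1%), and lowest on chromosome 13 among chromosomes with more than 1 such cluster, with 37 of 179 (20.7%). The share over all chromosomes was 38.2%. These 2 chromosomes were picked as the extremes, so the gap between them is a description.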
